A study of Mus musculus with 11 samples.

Results

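The genes described here are 8 transcripts listed as markers of the pyramidal cells of hippocampal fields CA2 and CA3: Rgs14, Pcp4, Map3k15 and Cacng5, taken as CA2 genes, and Coch, Cdh24, Iyd and St18, taken as CA3 genes. They were found by symbol among the 30681 genes of a count table from mouse hippocampus. The list named 9 symbols, and the remaining one, Lyd6, matched no gene of the table, so no value is given for it. The 9 symbols were chosen by name with the genotype fold changes of these libraries in view, so the genotype differences below are a description of these genes and not independent evidence on them. RNA came from 1 hippocampus per library of mice aged 6 months. There were 6 libraries labelled as a conditional knockout of Dclk3 (cKO), which encodes a doublecortin-like kinase, and 5 labelled wild type (WT). A conditional knockout deletes a gene in cells that carry a recombinase, and the sources used here give neither the recombinase nor which exons of Dclk3 were targeted. No label states that each library is a separate animal, so the p-values describe spread among these samples, which may be technical.

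CA3 pyramidal cells receive mossy fibres from the dentate gyrus and excite one another and CA1. CA2 is a narrow field between CA3 and CA1, known for its part in social memory and for weak long-term potentiation at its inputs from CA3. Both fields are a small share of the tissue, so in bulk RNA a lower level from fewer cells cannot be told apart from less RNA per cell.

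The libraries held 24001828 to 35674490 counts each. Levels are in CPM, counts scaled to the size of each library. Dclk3 averaged 20.1 ± 3.44 CPM (SD, n = 6) in the cKO-labelled libraries, against 22.4 ± 3.31 CPM for WT (SD, n = 5). Its values ran from 15.5 to 25.7 CPM in the former and from 19.6 to 28.1 CPM in the latter, and the groups overlapped (log2 fold change -0.15 ± 0.12, SE; edgeR quasi-likelihood test, Benjamini-Hochberg over all genes, adjusted p = 0.727). The count covers the whole gene and so does not show whether a part was deleted. By Xist and Y-linked transcripts all 6 cKO-labelled libraries were male, while WT held 3 female libraries (replicates 1, 3 and 4) and 2 male ones (replicates 2 and 5). Genotype and sex are therefore partly confounded. Values from the 8 male libraries alone stand beside those of all 11 for the 8 genes, for each list, and for other genes named by fold change where the 2 fits differed by more than 0.1 on the log2 scale.

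Per kilobase of exon, the 8 genes formed 3 tiers. Rgs14, a scaffold and G-protein regulator that restrains plasticity in CA2, stood highest at 34.8 ± 4.44 CPM per kb (SD over 11 libraries). Pcp4, a small protein that speeds calcium exchange on calmodulin, followed at 30.6 ± 3.56 CPM per kb, and the ranges of these 2 genes overlapped. Next came St18 (4.63 ± 0.27), Cdh24 (3.93 ± 0.71), Iyd (3.15 ± 0.85), Cacng5 (2.34 ± 0.35) and Coch (1.37 ± 0.45 CPM per kb), where each gene's range overlapped that of the next lower one. Map3k15 was lowest at 0.47 ± 0.11 CPM per kb, below Coch in all 11 libraries. Rgs14 exceeded 92.2% of all tested genes on this scale and Map3k15 15.2%. Map3k15 rested on 42 to 88 counts per library and Coch on 84 to 217, against 3447 to 6112 for Rgs14. Precision did not follow level alone. The SE of the log2 fold change was 0.21 for Iyd, 0.19 for Map3k15 and 0.17 for Coch. It was 0.10 for Rgs14 and 0.06 for St18.

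**Figure D1:**
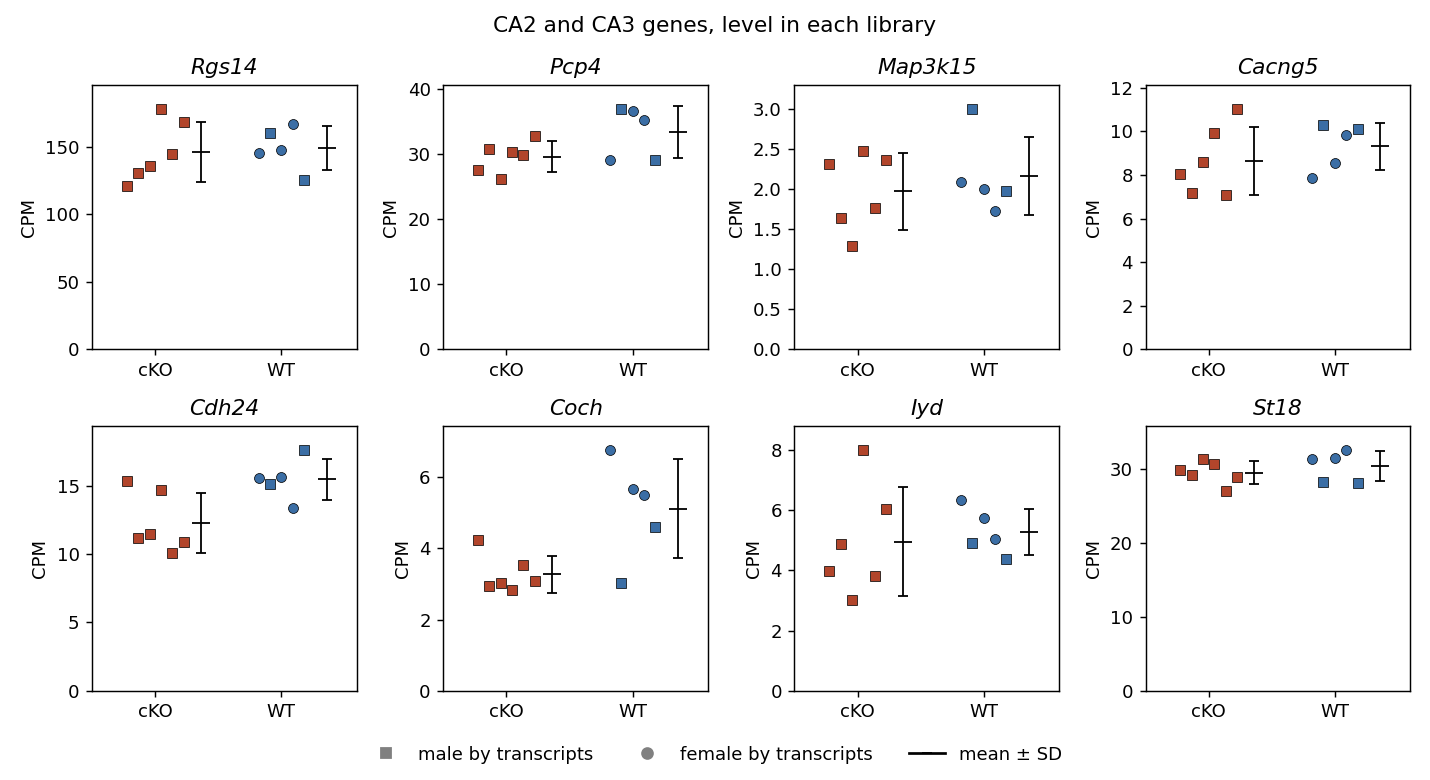
Level of each gene in CPM (vertical axis, from 0) in the 6 cKO-labelled libraries and the 5 WT libraries, with squares for male and circles for female libraries and the mean ± SD beside each group. The groups overlap for all 8 genes, and for Coch only WT replicate 2, at 3.03 CPM, lies among the cKO-labelled libraries.

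Among the CA3 genes, Coch had the greatest genotype difference of the 8 in the fit of all 11 libraries, though not in the 8 male ones, where Cdh24 (-0.41) and Map3k15 (-0.33) lay further from 0 and Cacng5 (-0.23) about as far. Coch (ENSMUSG00000020953, chromosome 12, 51593341 to 51605771, plus strand, mm10, 11 exon blocks) encodes cochlin, a secreted matrix protein best known from the inner ear. Its level in the cKO-labelled libraries was 2.82 CPM at the lowest, 3.05 at the median and 4.22 at the highest. In WT replicates 1 to 5 it was 6.76, 3.03, 5.66, 5.51 and 4.61 CPM. The 4 other WT libraries lay above every cKO-labelled library, while WT replicate 2, a male library, lay among them. The means were 3.27 ± 0.52 and 5.11 ± 1.39 CPM (SD, n = 6 and 5), with a log2 fold change at -0.65 ± 0.17 (SE; 95% interval -1.01 to -0.30; edgeR, adjusted p = 0.349). The 3 female WT libraries had 5.51 to 6.76 CPM. In the 8 male libraries the log2 fold change was -0.23, with an interval from -0.65 to 0.20. Without WT replicate 2 it was -0.79 (edgeR, adjusted p = 0.0746), and WT then held the 3 female libraries and the male replicate 5. The groups no longer overlapped, which follows from leaving out the only WT library that lay among those labelled cKO. Of the genes tested without that library, 1.17% were free of overlap in the lower direction, though it was not chosen by their values.

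The 250 bases upstream of the start sites of Coch, Cdh24 and Pcp4 are shown because these were the 3 genes with an unadjusted p under 0.05. The RefSeq table (build GRCm38.p6) held windows for 5 of the 8 genes, and not for Rgs14, Map3k15 or St18. Each sequence runs 5′ to 3′ on the gene's strand and ends at the base before the annotated start. Capitals mark the GC box, GGGCGG, searched on both strands.
Coch: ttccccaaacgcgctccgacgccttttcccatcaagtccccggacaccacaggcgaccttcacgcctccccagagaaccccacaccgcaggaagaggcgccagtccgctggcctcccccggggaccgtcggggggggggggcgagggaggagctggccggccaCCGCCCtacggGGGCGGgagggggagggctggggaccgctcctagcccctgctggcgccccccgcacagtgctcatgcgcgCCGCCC
Cdh24: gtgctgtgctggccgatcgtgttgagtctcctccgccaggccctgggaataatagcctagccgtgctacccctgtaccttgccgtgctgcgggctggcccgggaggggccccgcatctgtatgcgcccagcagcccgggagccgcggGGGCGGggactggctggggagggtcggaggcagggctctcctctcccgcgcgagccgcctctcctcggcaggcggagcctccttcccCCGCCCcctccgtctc
Pcp4: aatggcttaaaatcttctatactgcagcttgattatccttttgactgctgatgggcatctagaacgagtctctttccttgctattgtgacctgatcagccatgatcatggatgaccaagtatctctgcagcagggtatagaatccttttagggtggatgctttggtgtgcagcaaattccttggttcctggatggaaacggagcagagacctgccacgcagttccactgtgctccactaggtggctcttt
The Coch window (chr12:51593091-51593340, plus strand) had 3 GC boxes and 74.8% G and C. That of Cdh24 (chr14:54641365-54641614, minus strand) had 2 and 72.8%. The Pcp4 window (chr16:96467356-96467605, plus strand) held no match and had 46.8% G and C, against a median of 52.4% over 32851 windows. A GC box was found in 32.7% of all those windows, an E-box (CANNTG, both strands, overlaps with the GC box kept) in 66.2% and a TATA box (TATAAA, both strands) in 12.4%. Of these 3 genes Cdh24 alone had an E-box, 1 match, and none had a TATA box. These matches describe letters only, and no binding was measured.

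Coch was set beside 9 listed genes of meningeal fibroblasts, cells of the membranes around the brain. Of these 9 genes 7 had lower values in the cKO-labelled libraries, with a median log2 fold change of -0.56, and none was at 0. They did not move as a set. Slc6a13, Aldh1a2, Igf2, Slc13a4 and Slc22a6 lay from -0.93 to -0.56, and from -0.60 to -0.11 in the 8 male libraries. Col1a1, Col1a2 and Lum were at -0.10, -0.18 and 0.01, and at 0.12, 0.09 and 0.46 in the male libraries. Their summed level was 103 to 193 CPM in the cKO-labelled libraries and 128 to 198 CPM in WT. In the 8 male libraries 5 of the 9 were lower and their median was -0.11. The deviations of Coch from its group means and the mean deviation of these 9 genes had r = 0.90 and rho = 0.75 (2-sided permutation within groups, unadjusted p = 0.0044 and 0.0148, adjusted over 112 such relations 0.211 and 0.414). Without WT replicates 1 and 2 r was 0.60. It was 0.48 among the cKO-labelled libraries alone, 0.99 among WT alone and 0.75 in the 8 male libraries. WT held both sexes, so a difference between the sexes stays in these deviations. Of 14310 genes with a mean of at least 1 CPM, the 3 whose deviations were most like those of Coch over the 11 libraries were Slc13a4, a sulfate transporter (Pearson r = 0.95), Ttll13, of the tubulin ligase-like family (0.91), and Aldh1a2, an enzyme of retinoic acid synthesis (0.91). Slc13a4 and Aldh1a2 are among the 9 listed genes. In WT replicates 1 to 5 Slc13a4 had 5.73, 2.65, 5.46, 4.74 and 4.61 CPM, and 2.43 to 3.47 CPM in the cKO-labelled libraries. Aldh1a2 had 10.3, 3.13, 7.19, 7.03 and 5.90 CPM in WT and 3.28 to 3.89 CPM in the cKO-labelled libraries. Both were picked for their likeness to Coch, and the low value of WT replicate 2 in both, as in Coch, is a description that this choice fixes in part. The part of meningeal tissue in the Coch difference was not tested.

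**Figure D2:**
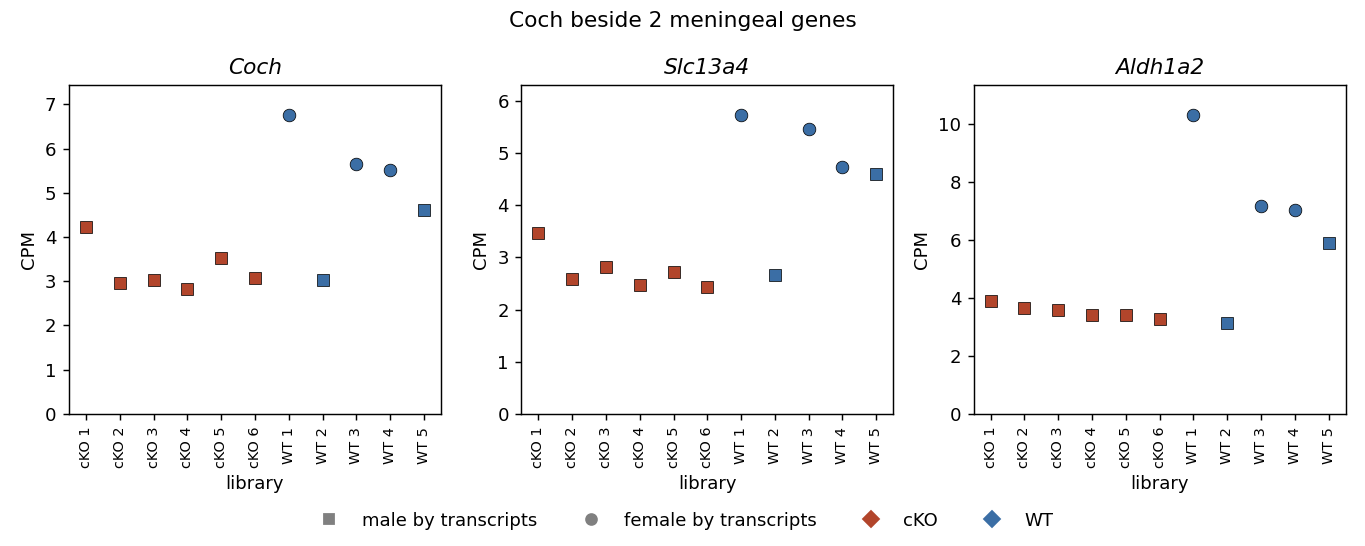
Level in CPM (vertical axis, from 0) of Coch and of the meningeal genes Slc13a4 and Aldh1a2 in each of the 11 libraries, coloured by group, with squares for male and circles for female. The 2 meningeal genes were chosen for their likeness to Coch, and in each panel WT replicate 2 stands with the cKO-labelled libraries and WT replicate 1 is highest.

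Cdh24 (ENSMUSG00000059674, chromosome 14, 54631231 to 54641364, minus strand, 12 exon blocks) encodes a classical type II cadherin of cell adhesion. Its level in the cKO-labelled libraries was 10.1 CPM at the lowest, 11.3 at the median and 15.4 at the highest. In WT replicates 1 to 5 it was 15.6, 15.1, 15.7, 13.4 and 17.6 CPM. Replicates 1 and 4 labelled cKO stood within the WT range and the other 4 below it. The means were 12.3 ± 2.19 and 15.5 ± 1.51 CPM (SD, n = 6 and 5), with a log2 fold change at -0.33 ± 0.11 (SE; interval -0.56 to -0.10; edgeR, adjusted p = 0.416). In the 8 male libraries the value was -0.41 (interval -0.73 to -0.09; edgeR, adjusted p = 0.854), so it was no smaller without the female libraries. The genes most like Cdh24 over the libraries were Plxnb3, a semaphorin receptor (r = 0.93), Fnbp1 (0.92) and Phldb1 (0.91). Its deviations and those of 9 listed oligodendrocyte genes had r = 0.66 and rho = 0.60 (permutation, unadjusted p = 0.0492 and 0.0814, adjusted 0.581 and 0.507). Without replicates 4 and 5 labelled cKO r was 0.32. The part of oligodendrocytes in the Cdh24 difference was not tested.

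Iyd (ENSMUSG00000019762, chromosome 10, 3540240 to 3554877, plus strand, 5 exon blocks) encodes iodotyrosine deiodinase, which recovers iodide in the thyroid. It was the most variable of the 8 genes in the cKO-labelled libraries, with a coefficient of variation of 36.6% there and 14.7% in WT. The values labelled cKO were 3.02 CPM at the lowest (replicate 3), 4.43 at the median and 8.0 at the highest (replicate 4). WT replicates 1 to 5 had 6.36, 4.90, 5.75, 5.03 and 4.38 CPM, all inside that range. The log2 fold change was -0.09 ± 0.21 (SE; interval -0.54 to 0.36; edgeR, adjusted p = 0.930), and 0.10 in the 8 male libraries (interval -0.60 to 0.80). Its 3 most alike genes included another CA3 gene, Bok, a member of the Bcl-2 family (r = 0.93), beside Rnf181 and Kcnh1, a potassium channel (both 0.93). Bok itself had 99.7 CPM in replicate 4 labelled cKO, its highest value, and 60.1 CPM in replicate 3, its lowest. With 11 further listed CA3 genes, Bok among them, Iyd had r = 0.17 and rho = 0.06 (permutation, adjusted p = 0.883 and 0.975). Without replicate 4 labelled cKO and WT replicate 1 that r was -0.64. Iyd had r = -0.68 with 6 interneuron genes and 0.67 with 9 oligodendrocyte genes (permutation, adjusted p = 0.581 for each).

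St18 (ENSMUSG00000033740, chromosome 1, 6487231 to 6860940, plus strand, 29 exon blocks) encodes a zinc-finger transcription factor of the Myt1 family. It was the least variable of the 8, at 27.1 to 31.4 CPM in the cKO-labelled libraries, with a median of 29.6. WT replicates 1 to 5 had 31.4, 28.3, 31.6, 32.6 and 28.1 CPM. The 3 female WT libraries thus lay above both male ones. The log2 fold change was -0.04 ± 0.06 (SE; interval -0.16 to 0.08; edgeR, adjusted p = 0.875), and 0.07 in the 8 male libraries, the other sign. Oligodendrocytes can also express St18. The summed level of 9 oligodendrocyte genes was 4572 to 6301 CPM in the cKO-labelled libraries and 4862 to 5860 CPM in WT, with a median log2 fold change of 0.01, also 0.01 in the 8 male libraries. With the 11 further CA3 genes St18 had r = 0.69 and rho = 0.62 (permutation, unadjusted p = 0.0286 and 0.0602, adjusted 0.457 and 0.450), and r = 0.70 without replicate 4 labelled cKO and WT replicate 1. For Coch, Cdh24 and Iyd, r with those 11 genes was lower, at 0.51, 0.40 and 0.17. Their rho was 0.44, 0.40 and 0.06. That order did not hold within each group. Among the cKO-labelled libraries St18, Coch, Cdh24 and Iyd had r = 0.68, 0.05, 0.70 and -0.01. Among WT they had 0.70, 0.86, -0.26 and 0.77, and in the 8 male libraries 0.67, 0.12, 0.70 and -0.02.

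Of the CA2 genes, Pcp4 had the lowest p in the fit of all 11 libraries. Pcp4 (ENSMUSG00000090223, chromosome 16, 96467606 to 96525793, plus strand, 5 exon blocks) had 26.2 CPM at the lowest, 30.1 at the median and 32.8 at the highest in the cKO-labelled libraries. WT replicates 1 to 5 had 29.2, 36.98, 36.7, 35.4 and 29.1 CPM. WT replicates 2, 3 and 4 lay above every cKO-labelled library, and replicates 1 and 5 within them. The log2 fold change was -0.18 ± 0.08 (SE; interval -0.34 to -0.02; edgeR, adjusted p = 0.504), and -0.16 in the 8 male libraries (interval -0.37 to 0.06). The gene shares 243 exon bases, 23.7% of its exon length, with Igsf5 on the same strand. Igsf5 was at 0.20 to 0.54 CPM in all libraries. Pcp4 is also expressed in other neurons. Its deviations and those of the 10 listed dentate granule cell genes had r = 0.80 and rho = 0.75 (permutation, unadjusted p = 0.0112 and 0.0256, adjusted 0.232 and 0.427). Without replicate 3 labelled cKO and WT replicate 4 r was 0.80. The granule cell genes had a median log2 fold change of -0.09, with 8 of 10 lower. That median was -0.0010 in the 8 male libraries, with 5 of 10 lower. Their part in the Pcp4 difference was not tested.

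Rgs14 (ENSMUSG00000052087, chromosome 13, 55369732 to 55384687, plus strand, 11 exon blocks) showed no separation of the groups. The cKO-labelled libraries had 120.6 CPM at the lowest, 140.1 at the median and 177.8 at the highest. WT replicates 1 to 5 had 145.4, 159.7, 147.8, 167.0 and 125.1 CPM, all inside that range. The log2 fold change was -0.03 ± 0.10 (SE; interval -0.25 to 0.19; edgeR, adjusted p = 0.962), and 0.04 in the 8 male libraries. With the 10 other listed CA2 genes Rgs14 had r = 0.82 and rho = 0.81 (permutation, unadjusted p = 0.0057 and 0.0104, adjusted 0.211 and 0.414). Without replicate 2 labelled cKO and WT replicate 5 r was 0.81. For Cacng5, Pcp4 and Map3k15, r with those 10 genes was lower, at 0.40, 0.37 and 0.14. Their rho was 0.48, 0.39 and 0.18. With 4 endothelial genes Rgs14 had r = 0.78 and rho = 0.85 (permutation, unadjusted p = 0.0043 and 0.0022, the smallest of the 112 relations; adjusted 0.211 and 0.243), and r = 0.85 without replicate 6 labelled cKO and WT replicate 4. The genes most like it were Ube2e2 (r = 0.96), Fam174b (0.95) and Arpc1a, an actin-nucleating subunit (0.94).

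Cacng5 (ENSMUSG00000040373, chromosome 11, 107874605 to 107915055, minus strand, 7 exon blocks) encodes an auxiliary subunit of AMPA receptors. Its values were 7.08 CPM at the lowest, 8.32 at the median and 11.03 at the highest in the cKO-labelled libraries, and 7.85, 10.3, 8.54, 9.86 and 10.1 CPM in WT replicates 1 to 5. The groups overlapped throughout. The log2 fold change was -0.11 ± 0.12 (SE; interval -0.35 to 0.14; edgeR, adjusted p = 0.823), and -0.23 in the 8 male libraries (interval -0.57 to 0.10). Its deviations were most like those of Rasd1, a small G protein (r = 0.97), A4galt (0.94) and Ajap1 (0.92).

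Map3k15 (ENSMUSG00000031303, chromosome X, 159988433 to 160123351, plus strand, 29 exon blocks) encodes a kinase that feeds the p38 and JNK pathways. It had 1.29 CPM at the lowest, 2.04 at the median and 2.47 at the highest in the cKO-labelled libraries. WT replicates 1 to 5 had 2.09, 2.99, 1.99, 1.73 and 1.98 CPM. WT replicate 2 stood above all other libraries, and the other 4 WT libraries lay within the range of those labelled cKO. The log2 fold change was -0.13 ± 0.19 (SE; interval -0.52 to 0.26; edgeR, adjusted p = 0.882), 0.02 without WT replicate 2 and -0.33 in the 8 male libraries (interval -0.89 to 0.22). The gene is X-linked, and the 3 female WT libraries, at 1.73 to 2.09 CPM, overlapped the 2 male ones, at 1.98 and 2.99 CPM. It shares 603 exon bases, 13.9% of its exon length, with Pdha1 on the opposite strand. Pdha1, a subunit of pyruvate dehydrogenase, had 230.6 to 270.9 CPM. Since it is not given whether counting used the strand, reads of the overlap cannot be assigned and the Map3k15 level is uncertain.

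**Figure D3:**
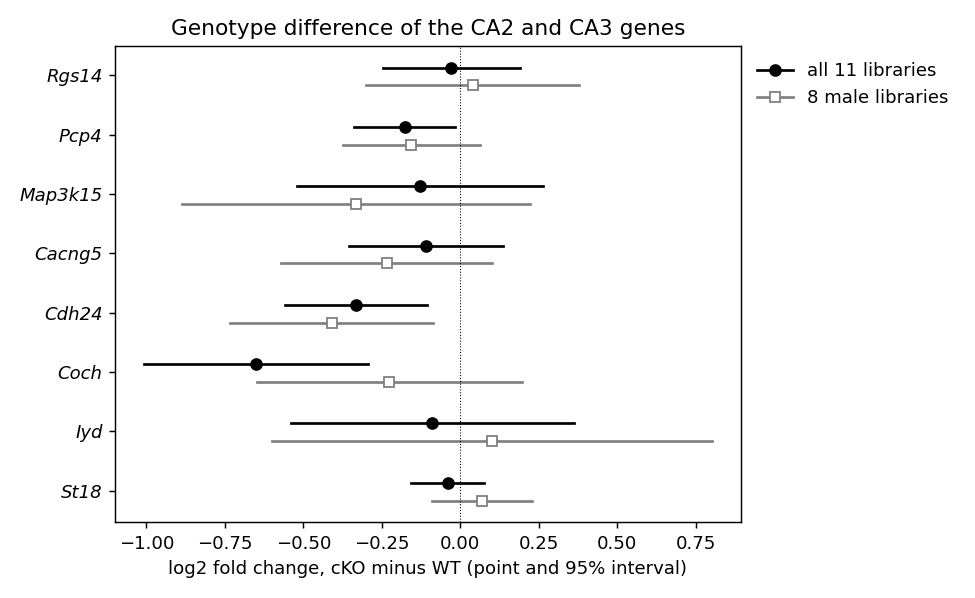
Log2 fold change of each gene, cKO minus WT, with its 95% interval (horizontal axis) from the edgeR fit of all 11 libraries (black circles) and of the 8 male libraries (grey squares). Coch moves from -0.65 to -0.23 between the fits, Cdh24 from -0.33 to -0.41, and Rgs14, Iyd and St18 change sign around 0.

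Counted as a list, all 8 genes had fold changes below 0, as did 50.0% of the 16587 genes tested, and the median was -0.12 against 0.00 over all of them. The low-count filter removed none of the 8. At an adjusted p under 0.05 edgeR called 0 of the 8, as it called 0.0% of all genes. Limma-voom with quality weights also called 0 of the 8 and 0.0% of all genes. DESeq2 called 0 of the 8 too, where it called 0.375% of the genes to which it gave an adjusted p (Coch in DESeq2, adjusted p = 0.055). At an unadjusted p under 0.05 edgeR had 3 lower (Coch, Cdh24 and Pcp4) and 0 higher, against 5.35% of all genes lower and 3.84% higher. In none of the 8 were the groups free of overlap, against 0.916% of all genes. Because the genotype results were known when the list was made, nothing is read from these counts. In the 8 male libraries 5 of the 8 were below 0, against 48.6% of all genes there.

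Other listed markers of both fields had values on each side of 0 in the fit of all 11 libraries, and mostly above 0 in the 8 male ones. Of 10 further CA2 genes 5 had lower and 5 higher values, with a median log2 fold change of 0.01 and 0 called by edgeR at an adjusted p under 0.05 (1 at an unadjusted p under 0.05). Of these 10 genes 3 were lower in the 8 male libraries, with a median of 0.08. The gene past the unadjusted threshold was Ntf3, the neurotrophin-3 gene, at 5.34 ± 1.02 CPM against 7.35 ± 1.66 CPM for WT (SD, n = 6 and 5; log2 fold change -0.47 ± 0.16, SE; edgeR, adjusted p = 0.417), and -0.20 in the 8 male libraries. Amigo2, an adhesion protein of CA2 and CA3a cells, was at -0.09 ± 0.13, and at 0.15 in the male libraries. Necab2, a calcium-binding protein, was at -0.07 ± 0.08, and Ptpn5, the phosphatase STEP, at 0.08 ± 0.05 (log2 ± SE). Acan, the aggrecan core protein of perineuronal nets, was at 0.26 ± 0.16. Of 11 further CA3 genes 4 had lower and 7 higher values, with a median of 0.01 and 0 called (0 also at an unadjusted p under 0.05). Only 1 of the 11 was lower in the 8 male libraries, with a median of 0.10. Among them Grik4, a kainate receptor subunit, was at 0.08 ± 0.07, Nnat at 0.01 ± 0.12 and Cpne4 at -0.01 ± 0.09 (log2 ± SE). In the male libraries, 2 of them WT, Grik4 was at 0.23 (unadjusted interval 0.03 to 0.43, edgeR adjusted p = 0.854), Nnat at 0.12 and Cpne4 at 0.16. The summed level of these CA3 genes was 1389 to 1686 CPM in the cKO-labelled libraries and 1398 to 1616 CPM in WT. Those of the CA2 genes summed to 465.1 to 531.1 and 479.8 to 509.0 CPM.

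**Figure D4:**
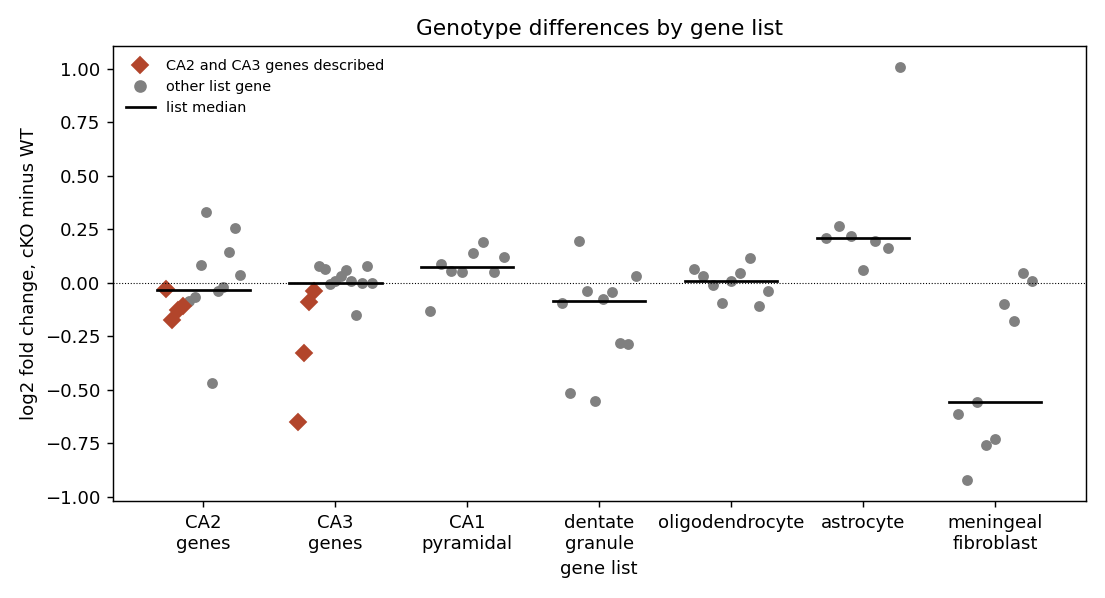
Log2 fold change, cKO minus WT (vertical axis), of the genes of 7 marker lists in the fit of all 11 libraries, with diamonds for the genes described here, grey circles for other list genes and a line at each list's median. The 11 other CA3 genes lie between -0.15 and 0.08, while Coch at -0.65 and Cdh24 at -0.33 lie below them. The genes described here were chosen with these fold changes in view, which fixes that contrast in part. In the 8 male libraries Coch was at -0.23 and Cdh24 at -0.41.

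Of 14 paralogues 8 had lower and 6 higher values, with a median of -0.01 and 0 called by edgeR (1 at an unadjusted p under 0.05, higher). In the 8 male libraries 10 of the 14 were lower, with a median of -0.05. The gene with that p was Cdh22, another type II cadherin, at 0.18 ± 0.07, the other sign from Cdh24. Vit, a relative of Coch, was at 0.16 ± 0.12, and at 0.33 in the male libraries. Pcp4l1 was at -0.07 ± 0.04, Rgs12 at -0.01 ± 0.04, and Map3k5, the kinase ASK1, at -0.10 ± 0.07 (-0.22 in the male libraries). The AMPA receptor auxiliary subunits Cacng2, Cacng3, Cacng4, Cacng7 and Cacng8 ran from -0.09 to 0.08, and Myt1 and Myt1l, relatives of St18, were at -0.12 ± 0.07 and 0.04 ± 0.05 (log2 ± SE). In the male libraries Myt1 was at -0.02.

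Neighbouring fields and tissues gave the setting. CA1 pyramidal cell genes had a median log2 fold change of 0.07, with 7 of 8 higher, and Man1a, a mannosidase, at 0.19 ± 0.06. The male libraries gave a median of 0.02, with 3 of 8 lower. Among 9 thalamic genes, 5 were lower with a median of -0.11, and Ramp3 (-0.59 ± 0.13), Zic1 (-0.46 ± 0.09) and Prkcd (-0.33 ± 0.09) had the smallest p. In the male libraries 8 of the 9 were lower with a median of -0.21, and Ramp3 was at -0.76 and Prkcd at -0.50. Their summed level was 125.0 to 168.4 CPM in the cKO-labelled libraries and 156.9 to 168.9 CPM in WT, where replicate 6 labelled cKO was the low one. Of the 9 thalamic genes taken singly, 2 had groups free of overlap, against 0.916% of all genes. That list too was made with earlier results known. All 7 astrocyte genes had higher values in the cKO-labelled libraries, with a median of 0.21, as did all 7 microglial genes, with a median of 0.19. In the male libraries the same counts held, with medians of 0.18 and 0.28. The summed astrocyte level was 8359 to 10403 CPM in the cKO-labelled libraries and 6743 to 7953 CPM in WT, so these sums did not overlap. Such a sum weighs the most abundant genes most. Of the 7 astrocyte genes taken singly, 0 had groups free of overlap, against 0.916% of all genes. The summed microglial level was 572 to 840 CPM in the cKO-labelled libraries and 570 to 628 CPM in WT, which overlapped. The part of these cell types in the values of the 8 genes was not tested. By edgeR, 0 of the genes named here passed at an adjusted p under 0.05.

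Single libraries differed in which of the 8 genes were high. In replicates 2 and 5 labelled cKO all 8 lay below their own mean over the 11 libraries, and in replicate 3 labelled cKO 7 did. In replicate 4 labelled cKO, in contrast, 6 lay above it, with Iyd 0.69 and Rgs14 0.28 above on the log2 scale, and Coch 0.47 below. WT replicates 3 and 4 each had 6 of the 8 above. The median deviation was lowest in replicate 3 labelled cKO, at -0.24, and highest, at 0.14 each, in 5 libraries: WT replicates 2, 3 and 4, and those labelled cKO as replicates 4 and 6.

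**Figure D5:**
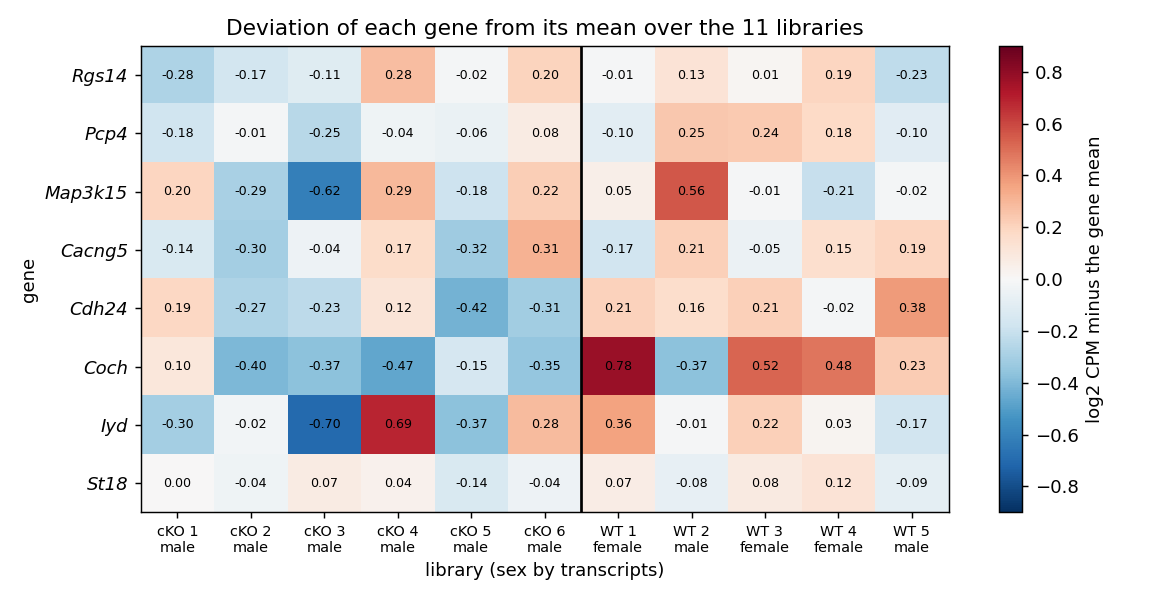
Log2 CPM of each gene minus its mean over the 11 libraries (colour and printed value), by gene (rows) and library (columns), with the sex read from transcripts. Coch is high in WT replicates 1, 3, 4 and 5, whereas Iyd is highest in replicate 4 and lowest in replicate 3 labelled cKO.

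With the group means removed, 19 of the 28 pairs among the 8 genes had a positive Pearson r, and no pair passed a permutation test after adjustment (smallest adjusted p = 0.586). Rgs14 and Iyd had the highest value (r = 0.65, rho = 0.55; 2-sided permutation within groups, unadjusted p = 0.0619 and 0.138, adjusted 0.586 and 0.630), and without replicates 1 and 4 labelled cKO r was 0.44. Rgs14 and Pcp4 followed (r = 0.63, rho = 0.64; permutation, unadjusted p = 0.0363 and 0.0337, adjusted 0.586 and 0.630), with r = 0.58 without WT replicates 1 and 5. Coch and Cacng5 had the most negative value (r = -0.51, rho = -0.46; permutation, unadjusted p = 0.0798 and 0.140, adjusted 0.586 and 0.630), with r = -0.39 without WT replicates 1 and 2. Coch had negative values with 5 of the other 7 genes. Ranked by likeness to Iyd among 14310 genes, Rgs14 was number 473, and likewise it was number 590 for Pcp4 and 732 for Cacng5. For Map3k15 the most alike genes were Cd38, Sept3 and Shisa6, an AMPA receptor partner (r = 0.92, 0.91 and 0.91). With the 6 genes shared by excitatory neurons Map3k15 and Cacng5 had r = 0.80 and 0.79, and rho = 0.73 and 0.78. Permutation gave adjusted p = 0.232 for each r, and 0.427 and 0.414 for rho. Without replicates 3 and 4 labelled cKO these r were 0.72 and 0.89. Of the 112 relations between a gene and a list, 0 passed a permutation test at an adjusted p under 0.05.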

How the data were processed

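RNA sequencing was done on polyadenylated RNA after a strand-marking (dUTP) preparation, as the labels' protocols describe. The tool bcl2fastq 2.17.1.14 and the build mm10 are named, per the submitters' processing notes. For aligner, counter, annotation and strand setting the choice is not given in the sources used here. Raw counts per Ensembl gene were deposited by the authors. Of 30681 genes 30566 matched a symbol. Coordinates and exon lengths are from GENCODE M21 (mm10), promoter windows from RefSeq GRCm38.p6.

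Of these genes 16587 passed filterByExpr and were scaled by TMM. CPM were computed here from those counts. The test was edgeR's robust 2-sided quasi-likelihood F test of genotype on all 11 libraries, Benjamini-Hochberg adjusted at 0.05 (R 4.3.3, edgeR 4.0.16, limma 3.58.1, DESeq2 1.42.0). The fit was tested on simulated counts with known differences. Log2 CPM used a prior count of 2, and correlations 100000 permutations within groups. The groups were the genotypes, so a difference between the sexes stays in the WT deviations. The common biological coefficient of variation was 9.56%. No replicate pair agreed within sampling noise (smallest chi-square per degree of freedom 5.70).

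The 8 genes and all lists were chosen with earlier results of these data known. Named genes are the 8, Dclk3, genes of the CA2, CA3 and paralogue lists, up to 3 of smallest p per other list and the 3 most alike for each of the 8. Igsf5 and Pdha1 were added for their exon overlaps, and further meningeal genes to show the spread of that list. Alternatives were other scaling, filters and tests, a replicate block, a sex term, male libraries only and each library left out.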

Additional observations from a re-analysis of the deposited data

Results flagged for a closer look

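Map3k15 in WT replicate 2, at 2.99 CPM, stood apart from the other 4 WT libraries, which had 1.73 to 2.09 CPM. Its gap to the next library was larger than Dixon's test allows for 5 values. Of 16 groups checked, 2 for each of the 8 genes, this was the only one, and chance gives about 1 in 20. Beside the library's value stand its summed level of meningeal genes, 128 CPM, the lowest in WT, and its Coch level of 3.03 CPM, also the lowest in WT. Their part in it was not tested.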

How the results depend on the processing

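Coch, Cdh24, Pcp4 and Cacng5 had log2 fold changes below 0 in all 21 alternatives, from -0.79 to -0.23, -0.41 to -0.28, -0.23 to -0.14 and -0.24 to -0.05, and no alternative called any of the 8 genes. Values near 0 took the other sign with a sex term and in the male libraries for Rgs14 (0.037 and 0.040), Iyd (0.10 and 0.10) and St18 (0.068 and 0.070). As all cKO-labelled libraries were male, both settings in effect compare them with the 2 male WT libraries. They are not separate support for each other. With each library left out in turn Rgs14 ran from -0.091 to 0.025, Iyd from -0.28 to 0.022 and Map3k15 from -0.21 to 0.016. Over the whole table edgeR called 1 gene with library totals only and 3 without the low-count filter, DESeq2 called 58, and leaving out single libraries gave 0 to 14 (14 without WT replicate 5, 2 without WT replicate 2, 1 without WT replicate 1). Among the 8 genes 0 to 1 had groups without overlap when single libraries were left out. This was Coch without WT replicate 2, its only WT library within the cKO-labelled range. With the replicate number as a block edgeR called 0 genes and Coch was at -0.61; same-numbered libraries had correlations from -0.32 to 0.21 over genes, 1 of 5 cKO-labelled libraries was most like its own number, and the numbers are taken as names only. The causes were not tested. Map3k15 and Coch had the fewest counts of the 8 genes, and 5 WT libraries of both sexes limit all values.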
